A study of Drosophila melanogaster with 3 samples.

Results

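This account describes where the tagged CG3919 protein was found at 10 genes of Drosophila melanogaster, 9 that encode glycolytic enzymes and lactate dehydrogenase (Hex-A, Pgi, Pfk, Tpi, Gapdh1, Gapdh2, Pgk, Eno and Ldh) and ERR, which encodes a nuclear receptor. The genes were chosen by name. A peak was assigned to one of them when its summit lay inside the annotated gene span or within 2 kb upstream of any of its transcription start sites (TSSs), and 19 of the 9569 reproducible peaks met this rule. The material was whole prepupae, males and females pooled and of unknown age, from 1 transgenic line with a stable insertion that makes CG3919 with GFP at its C terminus. Chromatin immunoprecipitation (ChIP) used an antibody against GFP, and all 3 biological replicates carried the tag. There was 1 group and 1 control file per genome build, so the peaks were compared within the genome and not between conditions. A whole animal mixes tissues, and binding in few cells cannot be told apart from weak binding in many.

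Glycolysis turns glucose into pyruvate, and lactate dehydrogenase reduces pyruvate to lactate while it restores the NAD needed for glycolysis to go on. Growing Drosophila larvae rely on this route for biosynthesis. ERR, the fly's estrogen-related receptor, binds DNA at sites that hold the nuclear receptor motif AGGTCA, and in embryos it is needed for the rise in transcripts of glycolytic enzymes before larval growth. At the onset of metamorphosis feeding stops and pulses of ecdysone rebuild the animal. Deposited peak lists hold the position of each region, the position of its summit and a signal by the authors. Within each list the regions are ranked here by that signal, from 1 for the strongest.

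The sequences under the strongest peak of Gapdh2, Pgk, Eno, Hex-A and Ldh and under both peaks of ERR are shown because the results turn on these sites. Each is 201 bases of the dm6 reference centred on the summit, written 5′ to 3′ along the strand of the gene. Capitals mark matches, on either strand, to the TATA box TATAAA, the receptor motif AGGTCA, the DRE core CGATA, the GAGA element GAGAG or the hypoxia response core ACGTG. The windows are chrX:15867882-15868082 on the plus strand for Gapdh2, chr2L:2751907-2752107 on the minus strand for Pgk, chr2L:1727815-1728015 on the minus strand for Eno, chrX:9585410-9585610 on the plus strand for Hex-A and chr3L:6262807-6263007 on the minus strand for Ldh. For ERR, on the minus strand, they are chr3L:8186789-8186989 at the 5′ TSS and chr3L:8185821-8186021 at the internal TSS.
Gapdh2, promoter: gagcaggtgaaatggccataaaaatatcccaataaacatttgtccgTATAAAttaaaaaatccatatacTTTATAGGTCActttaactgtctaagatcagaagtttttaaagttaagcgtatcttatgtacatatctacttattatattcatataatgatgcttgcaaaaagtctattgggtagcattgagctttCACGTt
Pgk, intron: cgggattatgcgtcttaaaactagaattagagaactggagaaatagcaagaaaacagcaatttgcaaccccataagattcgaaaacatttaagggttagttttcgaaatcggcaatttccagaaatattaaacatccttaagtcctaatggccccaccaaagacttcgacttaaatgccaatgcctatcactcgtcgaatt
Eno, internal promoter: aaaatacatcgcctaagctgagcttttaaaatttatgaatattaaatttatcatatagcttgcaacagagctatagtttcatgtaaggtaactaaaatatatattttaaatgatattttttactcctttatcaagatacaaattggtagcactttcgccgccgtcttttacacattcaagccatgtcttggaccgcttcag
Hex-A, promoter: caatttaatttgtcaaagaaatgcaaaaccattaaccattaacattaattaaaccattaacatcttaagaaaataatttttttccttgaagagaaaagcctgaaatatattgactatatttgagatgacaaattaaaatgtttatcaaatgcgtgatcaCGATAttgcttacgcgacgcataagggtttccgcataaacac
Ldh, promoter: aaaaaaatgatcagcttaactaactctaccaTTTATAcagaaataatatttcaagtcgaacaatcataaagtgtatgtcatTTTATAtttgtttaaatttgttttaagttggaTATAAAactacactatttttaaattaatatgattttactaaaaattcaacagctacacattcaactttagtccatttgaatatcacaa
ERR, 5′ promoter: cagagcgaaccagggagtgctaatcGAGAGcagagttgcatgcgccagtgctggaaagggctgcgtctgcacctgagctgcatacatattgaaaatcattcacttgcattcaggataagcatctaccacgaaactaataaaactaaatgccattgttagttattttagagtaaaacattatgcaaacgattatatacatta
ERR, internal promoter: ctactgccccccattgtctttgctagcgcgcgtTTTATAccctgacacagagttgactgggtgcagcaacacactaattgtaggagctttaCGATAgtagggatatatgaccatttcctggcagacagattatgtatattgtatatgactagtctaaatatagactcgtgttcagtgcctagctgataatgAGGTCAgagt

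Of the 10 genes, 7 had at least 1 reproducible peak, namely Hex-A, Pgi, Gapdh2, Pgk, Eno, Ldh and ERR. Pfk, Tpi and Gapdh1 had none. Among all 13945 protein-coding genes, 4626 (33.2%) met the same rule. The same 7 genes had a summit within 500 bp of a TSS, here called a promoter peak, against 3217 protein-coding genes (23.1%). When the strongest 9569 candidate regions of each replicate list were used instead, 8, 7 and 7 of the 10 genes had a promoter peak in replicates 1, 2 and 3, a mean of 7.33 ± 0.577 (SD, n = 3), against 23.9% ± 1.82 of protein-coding genes. The genes were not the same throughout: Tpi had one in replicates 1 and 2, and Pgi had none in replicate 2. Longer genes can collect more peaks: the 10 genes had a median span of 3451 bp and a median of 2 TSSs, while all protein-coding genes had 2166 bp and 1 TSS, and the part of span in the count was not tested. Among the 7 genes with a peak the median rank of the strongest one was 409, beside 2892 for the 4626 protein-coding genes with a peak. A gene with more peaks has more chances of a strong one, and the part of peak number in this difference was not tested. The strongest peaks of Pgk and ERR lay nearer to a TSS of another gene.

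Most of the 19 peaks were at promoters. There were 13 promoter peaks, 2 peaks in an intron more than 500 bp from any TSS of the gene, and 4 peaks upstream between 500 bp and 2 kb. The rule admits only the gene span and 2 kb upstream, and the same split was not counted over all reproducible peaks. No summit outside a promoter lay in an exon. Of the promoter peaks, 6 lay inside the gene span, at internal TSSs of Pgk, Eno and ERR, and 5 of these 6 summits were in an intron. When upstream sequence was not counted, these were the 3 genes with a peak.

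**Figure D1:**
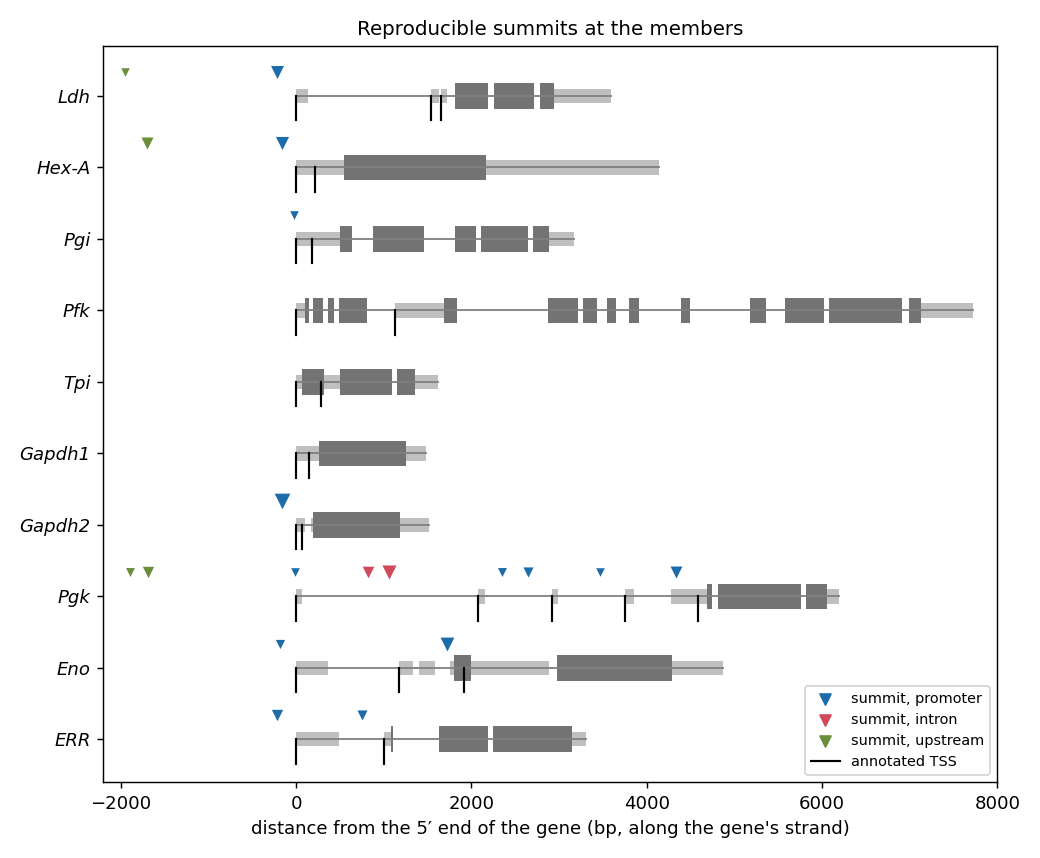
Map of the 10 genes drawn along their own strands, with distance from the 5′ end in bp on the x axis; dark boxes are coding exons, light boxes other exons, black ticks annotated TSSs, and triangles reproducible summits, larger for stronger peaks and coloured by position. Pgk carries 9 of the 19 summits, 5 of them within 500 bp of a Pgk TSS, and Pfk, Tpi and Gapdh1 carry none.

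The upper part of the pathway had a strong peak at Hex-A, a weak one at Pgi and none at Pfk. Hex-A (FBgn0001186, X at 9585675 to 9589813, plus strand) encodes hexokinase, which traps glucose as glucose 6-phosphate. Its promoter peak, on X at 9585234 to 9585699, had its summit 165 bp upstream of the 5′ TSS and ranked 620, 323 and 351 in replicates 1, 2 and 3. A second peak, on X at 9583756 to 9584135, lay 1705 bp upstream of Hex-A and 207 bp upstream of lncRNA:CR45541, a non-coding RNA gene on the same strand, and ranked 837, 801 and 1194. The promoter peak was the stronger in every replicate. Pgi (FBgn0003074, 2R at 8910900 to 8914069, minus strand) encodes phosphoglucose isomerase, which makes fructose 6-phosphate. Its only peak, on 2R at 8913872 to 8914307 with the summit 21 bp upstream of the 5′ TSS, ranked 4386, 10985 and 5634. The rank in replicate 2 fell outside the strongest 9569 regions, while the pooled rank of the Pgi peak was 6522. Pfk (FBgn0003071, 2R at 10109740 to 10117457, plus strand) encodes phosphofructokinase, the main control point of glycolysis. No candidate region of the pooled list or of any replicate had a summit in its span of 7718 bp or within 2 kb upstream of a TSS, and the nearest reproducible summit was 6288 bp outside the span.

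Both glyceraldehyde 3-phosphate dehydrogenase genes catalyse the same step, and their maps differed. Gapdh2 (FBgn0001092, X at 15868145 to 15869661, plus strand) had the strongest peak of all 10 genes. It spanned 15867771 to 15868195 on X, with the summit 163 bp upstream of the 5′ TSS, and ranked 76, 26 and 55 in replicates 1, 2 and 3, with 51 in the reproducible set. Gapdh1 (FBgn0001091, 2R at 7791901 to 7793380, minus strand) has a span of 1480 bp, close to the 1517 bp of Gapdh2, and the same number of annotated TSSs, 2. It had no candidate region in the pooled list or in any of the 3 replicate lists, and the nearest reproducible summit was 8904 bp away. The difference between both genes held in each replicate, with a rank of 76 or better at Gapdh2 and no entry among 30000 candidates at Gapdh1. Whether reads mapped equally well to both paralogs was not tested. Tpi (FBgn0086355, 3R at 30132981 to 30134599, minus strand) encodes triose phosphate isomerase, which interconverts both triose phosphates. It had a candidate region but no reproducible peak. This region, on 3R at 30134779 to 30135214, ranked 11944 in the pooled list, with its summit 398 bp upstream of a TSS. The replicates placed their candidate 243, 267 and 398 bp upstream at ranks 6208, 4239 and 11046, so replicates 1 and 2 had it among their strongest 9569 and replicate 3 did not.

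Pgk carried 9 of the 19 peaks, the most of any of the 10 genes. Pgk (FBgn0250906, 2L at 2746880 to 2753068, minus strand) encodes phosphoglycerate kinase, the first ATP-making step of the pathway, and is annotated with 5 TSSs over 6189 bp. A summit lay within 500 bp of each of the 5. At 3 internal TSSs the summit was upstream by a similar distance. The strongest of them, 249 bp upstream, ranked 920 in the reproducible set and 1458 and 833 in replicates 2 and 3, with no entry in replicate 1. The next, 277 bp upstream, ranked 2507, 2605 and 3846 in replicates 1, 2 and 3, and the weakest, 283 bp upstream, ranked 8091, 4778 and 8398. The TSS next to the 5′ one had its summit 273 bp downstream, with ranks of 7858, 5691 and 5992. At the 5′ TSS the summit was 7 bp upstream of Pgk and within the span of Bacc, a gene that points the other way. It lay 158 bp upstream of an internal Bacc TSS, and the peak ranked 7018, 3736 and 3803 in replicates 1, 2 and 3. The overlapping candidate of replicate 1 had its summit 180 bp away. All 5 promoter peaks ranked below the strongest peak of the gene in each replicate that listed them. That strongest peak was in an intron and at no promoter of Pgk. It lay on 2L at 2751800 to 2752391, 1018 bp from the nearest Pgk TSS, and ranked 173, 190 and 218 in replicates 1, 2 and 3. The same region holds a second summit 236 bp away, listed as a peak of its own, which ranked 406, 434 and 790. Both summits lay upstream of a TSS of Bacc, by 438 and 202 bp. The span of Bacc, 2752445 to 2757975, overlaps the 5′ end of Pgk on the opposite strand, so position alone does not assign these summits to either gene. A further pair of summits lay 1684 and 1894 bp upstream of Pgk and within the Bacc span. The first ranked 1587, 1088 and 1454 in replicates 1, 2 and 3 and the other 7621, 9757 and 5387.

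Eno and Ldh each had a strong promoter peak. Eno (FBgn0000579, 2L at 1724768 to 1729636, minus strand) encodes enolase, which makes phosphoenolpyruvate. Its strongest peak was at an internal TSS. This peak, on 2L at 1727653 to 1728209, had the summit 198 bp upstream of that TSS and ranked 250, 274 and 220 in replicates 1, 2 and 3. At the 5′ TSS of Eno a weaker peak, on 2L at 1729601 to 1730036, had the summit 183 bp upstream and ranked 5363, 5782 and 4596. The internal promoter thus outranked the 5′ promoter in every replicate, with no overlap of the rank ranges. Ldh (FBgn0001258, 3L at 6259105 to 6262694, minus strand) encodes lactate dehydrogenase. Only the first of its 3 annotated TSSs had a summit within 500 bp. That peak, on 3L at 6262664 to 6263102, lay 213 bp upstream and ranked 710, 380 and 338. A weak second peak 1950 bp upstream, on 3L at 6264426 to 6264861, ranked 5338, 11171 and 10035, and it was the lowest in the reproducible set of the 19, at 6725. Its distance was also the closest to the 2 kb limit. The next summits beyond that limit were 2540 bp upstream of Hex-A, at rank 3469, and 3899 bp upstream of Ldh, at rank 1048.

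ERR (FBgn0035849, 3L at 8183361 to 8186671, minus strand) had a peak at each of its 2 TSSs, both weaker than the strongest peaks of Hex-A, Gapdh2, Pgk, Eno and Ldh. The peak at the 5′ TSS, on 3L at 8186655 to 8187029, had its summit 218 bp upstream of ERR and ranked 1399 in the reproducible set. It ranked 2012 in replicate 2 and 1446 in replicate 3, and replicate 1 had no overlapping candidate region: its nearest summit was 956 bp away. The summit was only 32 bp downstream of the TSS of Atg18a, an autophagy gene on the opposite strand, so position alone does not assign this peak to ERR. The other ERR peak spanned 8185703 to 8186138 and had its summit in an intron, 251 bp upstream of the internal TSS. It ranked 2944, 3229 and 2913 (mean 3029 ± 174, SD, n = 3), and no TSS of Atg18a was nearer than that of ERR. The other of the 19 peaks that replicate 1 lacked was the Pgk promoter peak of rank 920. Over all reproducible peaks 3.03% had no overlapping candidate in replicate 1, against 1.22% in replicate 2 and 0.408% in replicate 3.

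The strongest peaks of the 7 genes spread from the top of the list to its lower part. In order of mean replicate rank they were Gapdh2 (52.3 ± 25.1, SD, n = 3), Pgk (194 ± 22.7), Eno (248 ± 27.1), Hex-A (431 ± 164), Ldh (476 ± 204), ERR (1729 ± 400, n = 2) and Pgi (7002 ± 3506). The ranges of neighbours in this order did not overlap, except for Hex-A and Ldh. Pgk and Eno were nearly adjacent, with 218 as the weakest rank of Pgk and 220 as the strongest of Eno, both in replicate 3. Hex-A ranked above Ldh in replicates 1 and 2 and below it in replicate 3, so both cannot be ordered. All 5 strongest of these peaks kept a rank of 710 or better in each replicate.

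**Figure D2:**
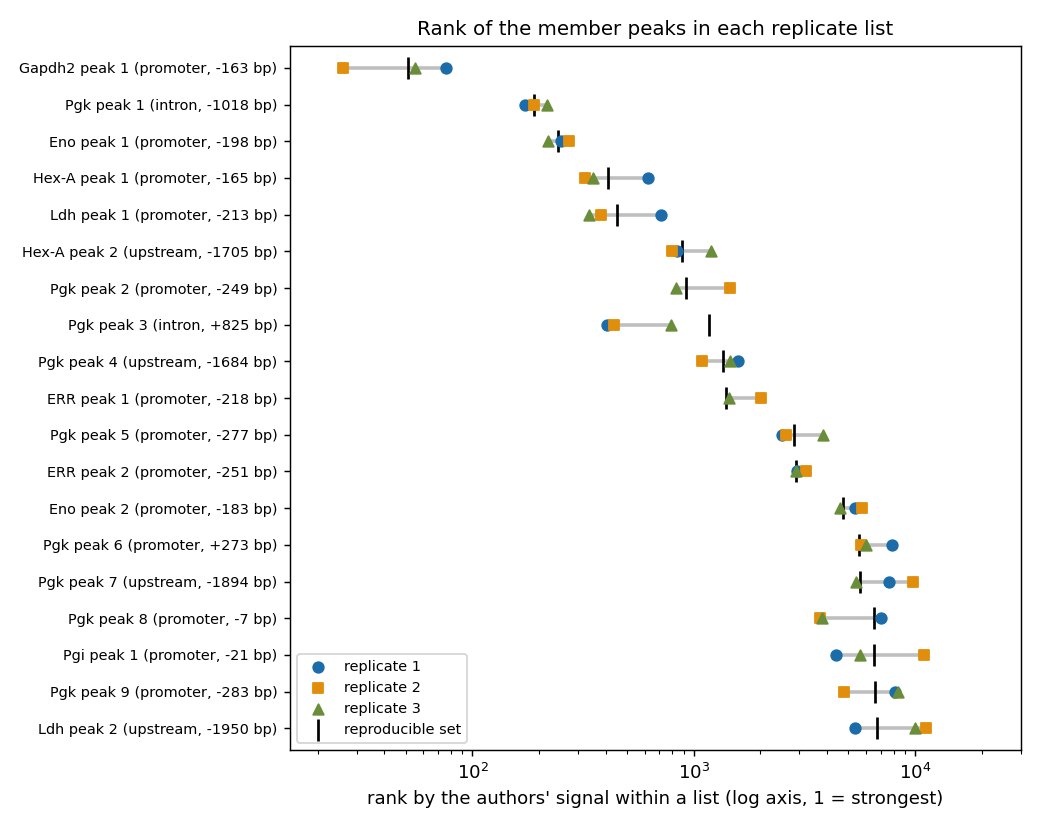
Rank of the 19 peaks on a log axis, 1 being the strongest; points are the 3 replicate lists, grey lines their range and black bars the rank in the reproducible set. Labels give each peak's order within its gene, its position and the summit's distance from the nearest TSS of that gene; replicate ranks run from 26 at Gapdh2 to 11171 at the distal Ldh peak, and 2 peaks have no point for replicate 1.

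The promoter summits of these genes lay mostly upstream by a similar distance. Of the 13, 12 were upstream of the nearest TSS of their gene, with a median position of -198 bp and quartiles of -249 and -163 bp. The 10 summits at Gapdh2, Hex-A, Ldh, Eno, ERR and 3 internal TSSs of Pgk fell between 163 and 283 bp upstream, and the exceptions were Pgi and both remaining Pgk promoters. Over all protein-coding genes, 3949 pairs of a gene and a promoter summit had a median position of -111 bp and quartiles of -237 and -18 bp, and 79.5% were upstream. Of those pairs 24.8% lay 150 to 300 bp upstream, a band chosen after the positions of the 10 were seen. The 13 summits are not independent, since 5 belong to Pgk. The weaker Eno summit and the ERR summit at the 5′ TSS lay nearer to a TSS of another gene.

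**Figure D3:**
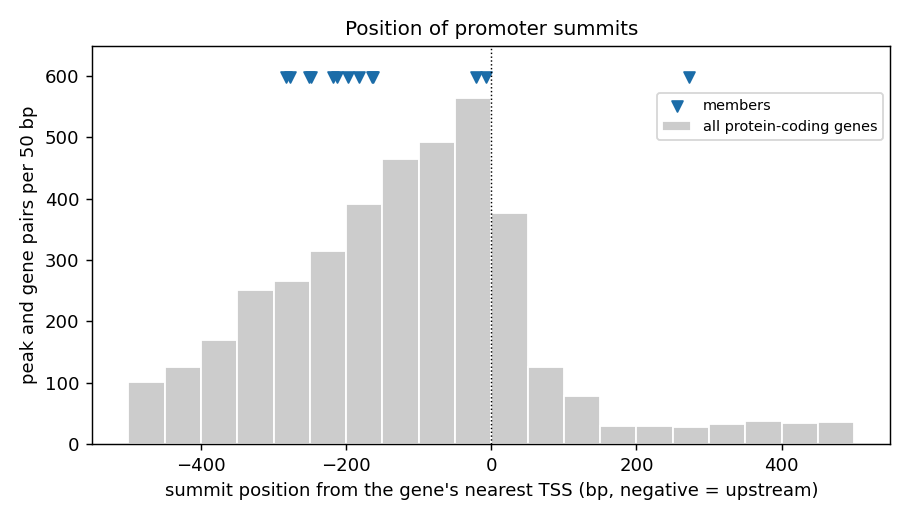
Position of summits within 500 bp of a TSS, in bp from the nearest TSS of the gene, negative upstream; grey bars count peak and gene pairs of all protein-coding genes in 50 bp bins, and blue triangles mark the 13 promoter summits of the 10 genes. The triangles crowd between -283 and -163 bp, to the left of the tallest bars.

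Several of these peaks lay near TSSs of other genes, and how common this is over all reproducible peaks was not counted. For 8 of the 19, the TSS of another annotated gene was nearer than that of the gene under study, including 2 of the 13 promoter peaks. These 2 were the ERR peak beside Atg18a and the weaker Eno peak, which was 68 bp upstream of CG31937, a protein-coding gene on the opposite strand. The Pgk peaks among the 8 all lay at the same locus, where Bacc had the nearer TSS. The Pgi summit was 434 bp upstream of lin, a patterning gene on the opposite strand, and nearer to Pgi. The promoter peak of Ldh lay 492 bp downstream of the TSS of lncRNA:CR44522, a non-coding RNA gene on the same strand. By contrast, no TSS of another gene lay within 500 bp of the promoter peaks of Gapdh2 and Hex-A. The same held for the promoter peaks at internal TSSs of Pgk, Eno and ERR.

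Summits of the stronger peaks tended to be richer in A and T. In 201 bp around the summit the share of A and T was 77.6% at the Ldh promoter, 71.1% at Hex-A, 70.1% at Gapdh2 and 68.7% at the internal Eno promoter. The strongest Pgk peak had 62.2%, the ERR peaks 59.7% and 56.7%, and the Pgi peak 60.2%. The Ldh value was above the 95th percentile of all reproducible peaks, 73.6%. The median was 63.7% over all reproducible peaks and lower, 61.7%, over the 19. Across the 19 peaks rank and A and T content had a Spearman's rho of -0.605, and across all 9569 peaks -0.179. These peaks share libraries and the Pgk ones share a locus, so the coefficients describe the sites and were given no test. The lowest values, 48.3%, 50.7% and 51.2%, all belonged to Pgk.

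**Figure D4:**
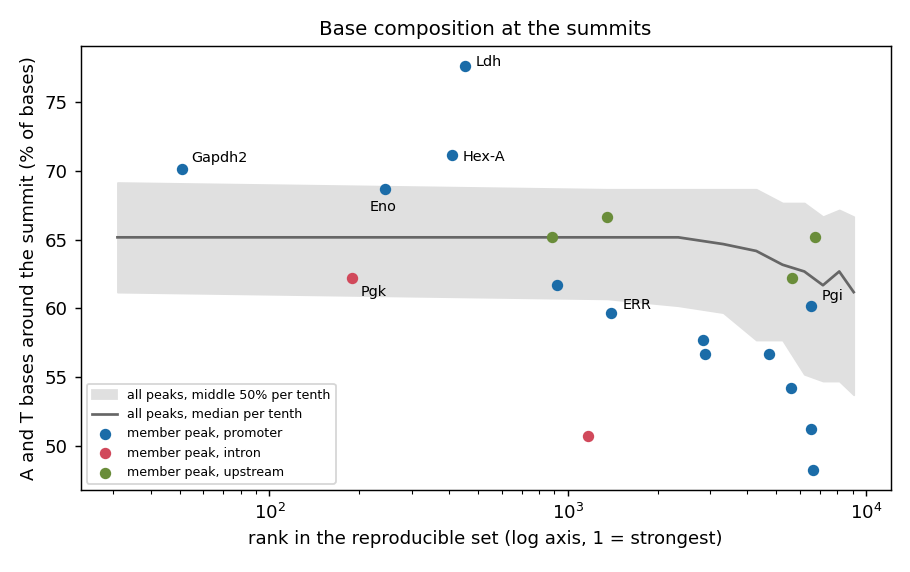
Share of A and T bases in 201 bp around the summit, in percent, against rank in the reproducible set on a log axis; coloured points are the 19 peaks of the 10 genes, with the strongest of each gene named, and the grey line and band are the median and middle 50% of all reproducible peaks in 10 groups by rank. Ldh, Hex-A and Gapdh2 lie above the band, and several weak Pgk peaks lie below it.

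Short motifs were searched on both strands in 200 bp around each summit. The extended site of ERR, TCAAGGTCA, was in none of the 19 windows and in 0.0627% of all reproducible peaks, and its core AAGGTCA was in none of the 19 and in 1.37% of all. The shorter AGGTCA, which both contain, was in 3 windows (15.8%) against 3.71% of all peaks. One of these was at Gapdh2, where it began 26 bp upstream of the summit as printed above, another at the internal ERR promoter, 91 bp downstream of the summit, and the other was at the Pgk promoter of rank 5606. TATAAA was in 6 windows (31.6%) against 32.0%, the DRE core CGATA in 7 (36.8%) against 23.3%, and ACGTG, the core of the hypoxia response element, in 4 (21.1%) against 13.6%. GAGAG, bound by GAGA factor, was in 4 windows (21.1%) against 26.3%. In windows of 300 bp the direction turned for both GAGAG, with 47.4% of the 19 against 37.9% of all peaks, and TATAAA, with 42.1% against 41.0%. The DRE motif TATCGATA, which contains CGATA, was in none of the 19 and in 1.83% of all peaks, the E-box CACGTG, which contains ACGTG, in none and 1.87%, and GGTCACAC, the core of promoter Motif 1, in none and 1.70%. The strongest Pgk window and both Eno windows held none of the 10 motifs. A match or its absence describes these letters in these windows and no more.

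Other genes of sugar metabolism were described by 5 lists. The remaining glycolytic enzymes, with their paralogs and testis forms, had a peak by the same rule in 3 of 15 (20.0%), a share below that of all protein-coding genes. They were Pfrx, which makes the activator of phosphofructokinase (mean replicate rank 3973 ± 1001, SD, n = 3), PyK, pyruvate kinase (4607 ± 1319), and Ald1, aldolase (7879 ± 1996). Of 13 genes that handle pyruvate, lactate and glycerol 3-phosphate, 9 (69.2%) had a peak. The strongest were at CG9399, of the mitochondrial pyruvate carrier family (206 ± 112), chk, a monocarboxylate transporter (1473 ± 363), muc, a subunit of pyruvate dehydrogenase (1440 ± 96.3), and Gpdh1, glycerol 3-phosphate dehydrogenase (1656 ± 34.7, n = 2). The ranked muc summit lay 1484 bp upstream of its nearest TSS. The pentose phosphate pathway had 4 of 7 (57.1%): Zw, glucose 6-phosphate dehydrogenase, at 79.3 ± 6.81 with a summit 1117 bp upstream, CG8036, a transketolase, at 123 ± 29.2, Pgd, phosphogluconate dehydrogenase, at 5119 ± 824 and Taldo, transaldolase, at 8546 ± 5503. By mean rank the peaks of Zw and CG8036 stood between the strongest ones of Gapdh2 and Pgk, and in replicate 1 that of Zw, at 74, stood above Gapdh2, at 76.

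Stores and regulators of sugar had the largest shares of genes with a peak among the 5 lists, and also the longest genes. Of 14 genes for glycogen, trehalose, sugar transport and gluconeogenesis 10 (71.4%) had a peak, led by Glyp, glycogen phosphorylase (325 ± 70.6), Treh, trehalase (402 ± 55.8), Pgm1, phosphoglucomutase (477 ± 24.0), and fbp, fructose 1,6-bisphosphatase (2738 ± 748). Of 14 regulators 12 (85.7%) had one, led by sima, the hypoxia-inducible factor (241 ± 66.3), Myc (320 ± 95.1), Sirt6 (841 ± 191) and bigmax, the partner of the sugar sensor Mondo (2118 ± 555). Not all of these ranked summits were at promoters. From the nearest TSS of the gene they lay 874 bp upstream at Treh and 1602 bp upstream at sima. The Myc summit lay 8765 bp downstream, and Myc had no promoter peak. Median gene span was 6087 bp for the stores and 10567 bp for the regulators, against 1993 bp for the remaining glycolytic enzymes and 2166 bp for all protein-coding genes; the part of span in these shares was not tested. Promoter peaks were at 3 of 15 remaining glycolytic enzymes, 8 of 13 pyruvate and lactate genes, 3 of 7 pentose phosphate genes, 9 of 14 store genes and 10 of 14 regulators. The neighbours Mondo and crc share 1 peak, so the genes are not independent.

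**Figure D5:**
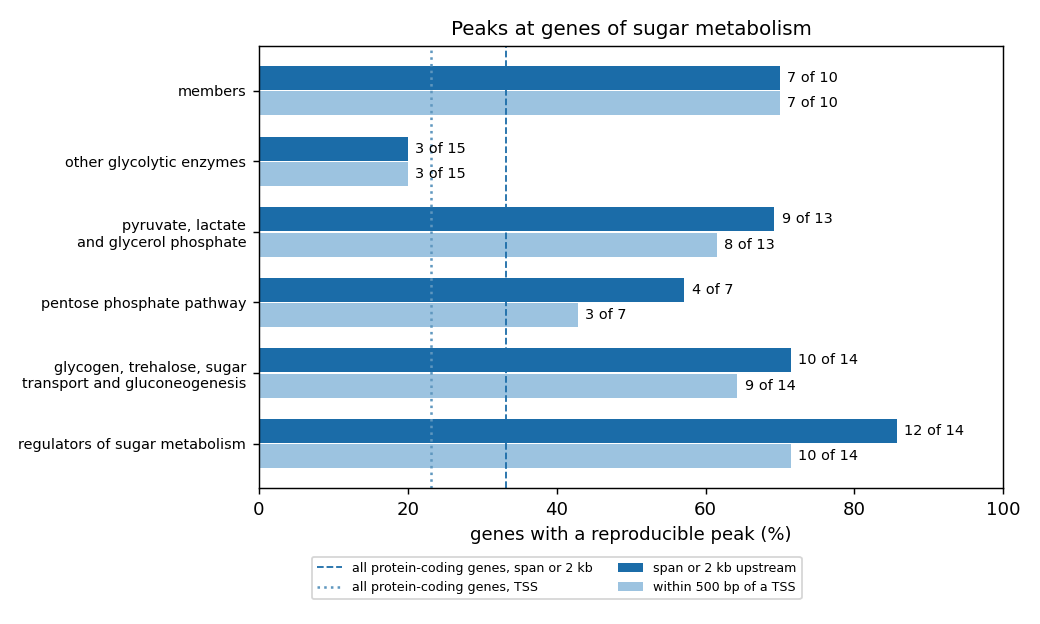
Share of genes with a reproducible peak, in percent, for the 10 genes (members) and 5 lists of sugar metabolism; dark bars use the gene span with 2 kb upstream, light bars 500 bp around a TSS, and vertical lines mark the shares of all protein-coding genes. The remaining glycolytic enzymes (3 of 15) lie below both lines and the other lists above them.

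The genes whose promoter peak was most like that of Ldh in rank over the 3 replicates were CG7330, CG8306 and Hex-A, among 2918 other protein-coding genes with ranks in all 3. Likeness was the Euclidean distance in log10 rank, which was 0.0372, 0.0898 and 0.0934. For ERR the peak at the internal TSS was used, since the other lacked a rank in replicate 1, and rept and mRpL21, which share a peak, were nearest at 0.0309, followed by Glut1, a glucose transporter gene, at 0.0408.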

How the data were processed

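CG3919-eGFP was mapped by ChIP-seq in 3 biological replicates of whole prepupae, from sonicated chromatin of 200 to 800 bp. Per the labels and the deposited provenance texts, the authors derived a list of 30000 candidate regions from each replicate and 1 control file, a pooled list of 30000 from all 3 replicates, and from these 9569 peaks reproducible between replicates (irreproducible discovery rate, IDR). What aligner, peak caller and IDR threshold the authors used, and the read depth, is not given in the sources used here. No scale is stated for the deposited signal, so it served for ranks inside a list only. Ranks took no account of the −log10 q-values that the authors deposited beside it. All replicates share the control. The 9569 reproducible peaks equal the strongest 9569 of the pooled list, as checked on the files. The dm3 lists were not used here.

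Genes and TSSs came from Ensembl release 115 (BDGP6.54, dm6 coordinates), without transposable elements, on 6 chromosome arms, and sequence from the RefSeq genome of that assembly; 0 regions ended past an arm. Positions are summits. A replicate's rank for a peak is that of the overlapping candidate (1 bp or more) with the nearest summit. No test was made: there is 1 group, and counts are set beside all protein-coding genes. Genes, lists and motifs were chosen with earlier results of these data known. All 10 genes are named, with genes whose TSS lies within 500 bp of a summit, up to 4 genes per list with the strongest peaks, and the 3 genes nearest in rank to Ldh and ERR; crc and Mondo were named after their values were seen. Of 64 listed names 63 matched, 3 through synonyms. Assignment and motif search were tested on simulated data. Python 3.11.15, numpy 2.4.6, pandas 2.3.3, scipy 1.17.1 and matplotlib 3.10.9 were used.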

Additional observations from a re-analysis of the deposited data

How the results depend on the processing

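The number of the 10 genes with a peak was 7 with an upstream reach of 1 or 5 kb, while the share of protein-coding genes was 29.7% and 42.0%. It was 7 with midpoints (33.2%) or region overlap (34.3%) in place of summits. With promoter windows of 250 and 1000 bp it was also 7, beside 18.5% and 26.9%. It was 6 with the stronger 4784 peaks, where Pgi was lost and 3223 protein-coding genes (23.1%) met the rule. Without upstream sequence it was 3, with 8 peaks, and 2317 protein-coding genes (16.6%) met the rule. With the stronger 4784 peaks 2007 protein-coding genes (14.4%) had a promoter peak. Keeping only peaks matched among the strongest 9569 regions of both other replicates left 6 to 7 genes and 15 to 17 peaks, beside 27.3% to 29.1% of protein-coding genes; Pgi was lost without replicate 1 and without replicate 3. Lists of single replicates, added after the data were seen, gave 7 to 8, beside 32.6% to 35.0%. For motifs, windows of 100 bp gave the DRE core in 3 of 19 (15.8% against 12.6% of all peaks), the hypoxia response core in 2 (10.5% against 6.63%), the GAGA element in 2 (10.5% against 12.6%) and the TATA box in 4 (21.1% against 17.8%). Windows of 300 bp gave the GAGA element in 9 (47.4% against 37.9%) and the TATA box in 8 (42.1% against 41.0%), so the direction turned for the GAGA element at 300 bp and for the TATA box at both. Other matching rules moved no mean replicate rank by more than its spread. No paired analysis was possible because there is 1 group. Read depth is unknown from peak lists, so the absence of a peak at Pfk, Gapdh1 or Tpi shows only that none passed at this depth and threshold.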
